A study of Mus musculus with 25 samples.

Results

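The divergence of FP-KO and WT lungs between Day 7 and Day 14 after bleomycin was measured as the interaction of genotype and day, the change from Day 7 to Day 14 in FP-KO lungs minus the same change in WT lungs, on the log2 scale. The 4 groups that enter it hold 17 of the 25 arrays in the series and were taken from the sample titles: FP-KO Day 14 (n = 4), FP-KO Day 7 (n = 4), WT Day 14 (n = 5) and WT Day 7 (n = 4). FP-KO mice lack FP, the receptor for prostaglandin F2α, which is encoded by Ptgfr. The mice of both genotypes were female. All 17 were given bleomycin through the trachea on Day 0, the dose being 1 mg/kg and the volume of saline 40 ul. The labels do not state age, strain or the part of Ptgfr that was deleted, and nothing beyond the title says that the mice came from separate litters or cages, so p-values measure the spread between these samples. RNA of whole lung was read on Affymetrix mouse genome arrays, 1 array for each mouse, as the intensity of probe sets, which are groups of short DNA probes for a transcript. The contrast asks whether the genotypes part between Day 7 and Day 14, and every value is also given, where it matters, without the array FP-KO Day 14 No. 2.

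Bleomycin, a DNA-damaging drug, injures the alveolar lining. Inflammatory cells enter first, surviving epithelium, fibroblasts and macrophages then divide, and fibroblasts lay down collagen. Prostaglandin F2α signals through FP, a G protein-coupled receptor, and is known to act on fibroblasts in culture. Whole-lung RNA mixes all of these cells, so fewer cells of a type and less RNA per cell cannot be told apart in any result here.

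The genotypes moved the same way from Day 7 to Day 14 for most genes, and 1 gene passed the test of the interaction. That gene is Ifi44l, an interferon-induced gene next to Ptgfr on the chromosome. Below it stood a broad set of differences of which none passed on its own: lists of cell cycle, interferon-stimulated, T cell, fibrillar collagen and metalloproteinase genes had negative medians, and those of drug metabolism, ciliated cells, resident fibroblasts and muscle had positive ones. A gene was called, and is said to have risen, fallen or passed, where its adjusted p was under 0.05 (limma, Benjamini-Hochberg over the 12062 genes tested). In the interaction 1 of 12062 genes was called, 0.00829% of those tested, with 0 up and 1 down. An unadjusted p under 0.05 was reached by 931 genes (7.72%), 411 up (3.41%) and 520 down (4.31%). Without FP-KO Day 14 No. 2 it was again 1 gene that passed, 0.00829%, and 596 (4.94%) reached an unadjusted p under 0.05, 261 up (2.16%) and 335 down (2.78%). The second-smallest adjusted p was 0.393 with all arrays and 0.806 without that array. These values use 1 probe set per gene, and for Rgs4 another probe set had a smaller p, as given below.

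The precision of the contrast is that of 4 group means. The median standard error of a gene's interaction was 0.19 on the log2 scale, against 0.14 for the FP-KO change and 0.13 for the WT change alone. The 95% interval lay within 1 log2 unit of 0 on both sides for 10698 genes (88.7%), so for these an interaction of 2-fold or more lies outside the interval. An interaction of at least 1 log2 unit in size was estimated for 100 genes with all arrays and for 54 without FP-KO Day 14 No. 2.

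A pair of features of the arrays bears on every value. FP-KO Day 14 No. 2 had a score of -28.9 on principal component 1 (42.0% of the variance), among the Day 0 arrays (-35.0 to -24.8). The other FP-KO Day 14 arrays lay from -5.37 to 1.44 and the WT Day 14 arrays from 13.4 to 25.6. Its ribosomal control probes averaged 4323, the highest of the 25 arrays. The Day 14 arrays also fall in 2 sets on the second component (16.9%): FP-KO No. 1 and 2 with WT No. 1 to 3 at -30.1 to -27.7 form a first set, and FP-KO No. 3 and 4 with WT No. 4 and 5 at -1.35 to 2.28 form a second. Both sets hold both genotypes, no label says what separates them, and the Day 7 arrays lay from 7.89 to 20.3.

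The changes that make up the interaction differ in how many genes passed. From Day 7 to Day 14, 2742 genes (22.7%) passed in FP-KO lungs, 1294 up (10.7%) and 1448 down (12%). In WT lungs 716 genes (5.94%) passed, 430 up (3.56%) and 286 down (2.37%). FP-KO against WT, 1270 genes passed on Day 14 (10.5%), 590 higher (4.89%) and 680 lower (5.64%), and 2 on Day 7 (0.0166%), which were Ifi44l and Ptgfr. Without FP-KO Day 14 No. 2, 1067 genes passed in FP-KO lungs (8.85%) and 968 in WT lungs (8.03%; 4.6% up and 3.42% down), the WT count shifting through the shared estimate of spread. FP-KO against WT on Day 14 it was 392 genes (3.25%), 1.59% higher and 1.66% lower. The FP-KO count thus moved with 1 array. With the second set of Day 14 arrays alone, which does not hold that array, 283 genes passed in FP-KO lungs and 15 in WT lungs. The difference in counts itself was not tested. Across the 12062 genes, which are not independent replicates, the FP-KO change and the WT change, which share no array, correlated at a Pearson r of 0.68 and a Spearman rho of 0.68. Both changes use Day 14 arrays of the same 2 sets, so whatever separates the sets enters both. Its part in the correlation was not tested. The standard deviation of the changes over genes was 0.38 in FP-KO lungs and 0.29 in WT lungs, and 0.32 in FP-KO lungs without No. 2.

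Genes that passed in both genotypes passed in the same direction. Of the 430 genes that rose in WT lungs, 279 also rose in FP-KO lungs, which is 21.6% of the FP-KO list and 64.9% of the WT list. Of the 286 that fell in WT lungs, 189 also fell in FP-KO lungs, 13.1% of the FP-KO list and 66.1% of the WT list. The shares depend on 1 array: without FP-KO Day 14 No. 2, 210 genes rose in both genotypes (43.6% of the FP-KO list and 37.8% of the 555 in the WT list), and 171 fell in both (29.2% of the FP-KO list and 41.4% of the 413 in the WT list). With all arrays, 0 genes passed up in one genotype and down in the other, and the same count was 0 without FP-KO Day 14 No. 2. The median change of the 430 genes was 0.43 in FP-KO lungs and 0.51 in WT lungs. Overlap was not computed within each set of Day 14 arrays, where 2961 genes passed the WT change with the first set and 15 with the second.

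**Figure D1:**
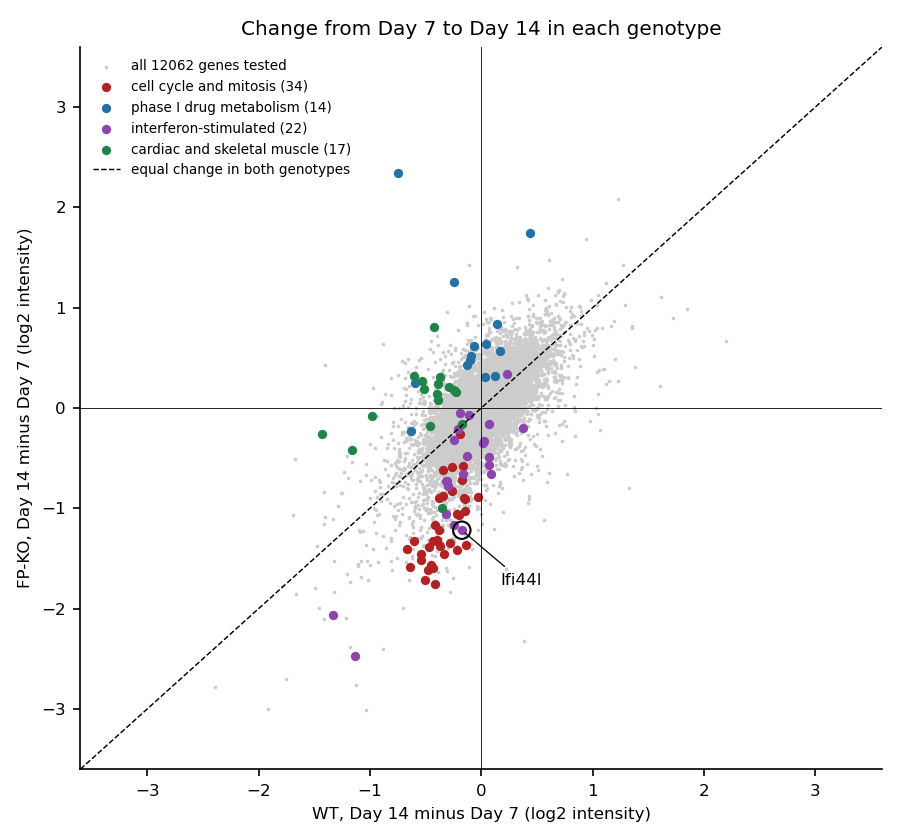
Change from Day 7 to Day 14 (log2 intensity) in FP-KO lungs on the vertical axis and in WT lungs on the horizontal axis, 1 point per gene for the 12062 genes tested, with 4 gene lists coloured and Ifi44l circled. The cell cycle genes lie below the dashed line of equal change, the drug metabolism genes above it, and Ifi44l lies at -1.22 in FP-KO lungs and -0.17 in WT lungs.

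Ptgfr, the targeted gene, was read at 21.1, 38.4, 48.0 and 28.8 in FP-KO Day 14 lungs and 41.6, 41.3, 44.0 and 45.9 in FP-KO Day 7 lungs. In WT lungs it was read at 176.4, 128.3, 159.1, 187.1 and 253.5 on Day 14 and at 140.0, 122.6, 229.2 and 200.1 on Day 7. Every FP-KO value lay below every WT value, with log2 differences of -2.49 on Day 14 and -1.95 on Day 7 that both passed (adjusted p = 8.47e-07 and 0.000186). Its interaction of -0.53 ± 0.33 (± standard error throughout) did not pass (adjusted p = 0.737).

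Ifi44l, which encodes an interferon-induced protein, is 1 gene away from Ptgfr on chromosome 3. It read 209.2, 158.6, 200.3 and 187.7 in FP-KO Day 14 lungs and 392.4, 445.1, 375.1 and 439.6 in FP-KO Day 7 lungs. In WT lungs it read 1.5, 3.8, 9.5, 10.7 and 17 on Day 14 and 27.9, 2.3, 33.9 and 1.6 on Day 7. All FP-KO Day 14 values lay below all FP-KO Day 7 values, while 7 of the 9 WT values were under 24.3, the floor to which low intensities were raised before the test. The interaction was -1.04 ± 0.15, with a 95% interval of -1.36 to -0.73 (adjusted p = 0.0072), and -0.94 without FP-KO Day 14 No. 2 (adjusted p = 0.0143). It is made on the FP-KO side, where the log2 change was -1.22 (adjusted p = 1.68e-06). The WT change of -0.17 (adjusted p = 0.297) compares values at or near the floor, so a fall in WT lungs could not have been read.

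On both days Ifi44l was higher in FP-KO lungs, by 2.91 on Day 14 and 3.96 on Day 7 on the log2 scale. These are fitted differences, and both understate the gap, since 5 of 5 WT values on Day 14 and 2 of 4 on Day 7 were at the floor. On Day 0 FP-KO lungs read 193.0, 203.9, 211.8 and 253.6, and WT lungs 2.3, 2.4, 12.6 and 28.8, so the FP-KO Day 14 values lie near those of FP-KO Day 0. A second Ifi44l probe set had an interaction of -1.36 (unadjusted p = 8.66e-06) and another, at the floor on 11 of the 17 arrays, -0.01. Within the first set of Day 14 arrays the interaction was -1.11 and within the second -0.98. Of the other genes up to 6 places from Ptgfr that were tested, the interactions ran from 0.05 to 0.28, and none passed. The call was lost with a common median in place of quantile normalization, with a floor at the 10th percentile, with a trend in the spread, with the 17 arrays alone and with the second set alone, as given in the closing section.

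The bases just upstream of the start of Ifi44l are shown because it is the gene that passed. They lie at chr3:151762892-151763141 on the minus strand (RefSeq, GRCm38.p6, a build used for names and promoters only) and hold no match to GAAA, any 2 bases and GAAA again, a short form of the interferon-stimulated response element. Capitals mark TTTGAA, a cell cycle homology region motif, on either strand.

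Ifi44l: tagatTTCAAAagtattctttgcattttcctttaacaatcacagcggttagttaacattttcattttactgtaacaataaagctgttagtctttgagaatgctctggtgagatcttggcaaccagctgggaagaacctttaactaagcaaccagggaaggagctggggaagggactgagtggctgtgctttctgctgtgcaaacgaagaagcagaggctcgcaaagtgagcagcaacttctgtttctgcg

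The interferon element was found, on either strand, in the upstream 250 bases of 978 of 32851 RefSeq promoters (2.98%) and of 10 of 23 promoters of interferon-stimulated list genes (43.5%). A match or its lack in this window describes the letters and nothing about binding.

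After Ifi44l the 7 genes of smallest p with a negative interaction were Rgs4, Ifi204, Serpinb9, Susd3, Herc6, Ska1 and Cdc20, and none passed (adjusted p = 0.393 each). Rgs4, a regulator that ends G protein signalling, read 318.7, 386.0, 322.9 and 275.7 in FP-KO Day 14 lungs and 530.7, 610.3, 441.5 and 389.1 in FP-KO Day 7 lungs. In WT lungs Rgs4 read 752.1, 835.8, 892.7, 603.7 and 505.1 on Day 14 and 579.6, 538.4, 501.8 and 397.9 on Day 7. All FP-KO Day 14 values lay below all others. The interaction of -1.11 ± 0.25 combines a fall in FP-KO lungs (-0.66, adjusted p = 0.0129) with a WT change of 0.45 that did not pass. Other Rgs4 probe sets had interactions of -1.13 and -0.95 (unadjusted p = 2.77e-06 and 0.0155, limma). In the same comparison of probe sets, the one that stands for Rgs4 had an unadjusted p of 0.000298 (limma). No adjusted p is given for these probe sets, so whether Rgs4 would pass with the first of them is not shown.

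Ifi204, an interferon-inducible DNA sensor of the p200 family, read 22.2, 36.9, 46.5 and 36.8 in FP-KO Day 14 lungs and 146.6, 177.8, 183.1 and 181.1 in FP-KO Day 7 lungs. The WT lungs read 61.2, 79.1, 84.1, 64.1 and 97.0 on Day 14 and 133.9, 123.5, 129.6 and 220.8 on Day 7. In each genotype the Day 14 values lay below the Day 7 values, and the gene fell in both (log2 change -2.40 in FP-KO lungs and -0.89 in WT lungs), with an interaction of -1.51 ± 0.34. Herc6, an interferon-induced ubiquitin ligase, fell in FP-KO lungs (-0.84, adjusted p = 7.95e-05) and had an interaction of -0.62 ± 0.15. Its FP-KO Day 14 values of 322.9 to 413.5 lay below the FP-KO Day 7 values of 608.5 to 707.7, while WT Day 14 (430.3 to 554.1) and WT Day 7 (481.9 to 671.1) overlapped. Other Herc6 probe sets had smaller interactions of -0.21, -0.47 and -0.41 (unadjusted p = 0.325, 0.0138 and 0.0929, limma).

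Serpinb9, an inhibitor of granzyme B, differed through the WT side. It read 3394.2 to 5065.9 in FP-KO Day 14 lungs and 4439.7 to 5618.2 in FP-KO Day 7 lungs, against 5852.2 to 7175.8 in WT Day 14 lungs and 4447.3 to 4757.9 in WT Day 7 lungs. It rose in WT lungs (0.52, adjusted p = 0.00384), with an interaction of -0.62 ± 0.14. Nnat, neuronatin, a small membrane proteolipid, had a like pattern and was among the 8 of smallest p without FP-KO Day 14 No. 2. It read 347.7 to 708.0 in FP-KO Day 14 lungs and 404.5 to 463.6 in FP-KO Day 7 lungs, and 826.3 to 1403.7 in WT Day 14 lungs against 425.1 to 540.7 in WT Day 7 lungs. It rose in WT lungs by 1.23 (adjusted p = 0.00024), and its interaction was -0.96 ± 0.24 with all arrays and -0.72 without No. 2, the array with its lowest FP-KO value. Within the first set of Day 14 arrays the interaction of Nnat was -1.42 and within the second -0.42. Susd3 read 54.7 to 71.3 in FP-KO Day 14 lungs and 118.8 to 188.2 in FP-KO Day 7 lungs, against 129.7 to 164.7 in WT Day 14 lungs and 127.4 to 175.4 in WT Day 7 lungs. The FP-KO Day 14 values stood alone below the rest, with an interaction of -1.19 ± 0.27. Another Susd3 probe set, at the floor on 6 of the 17 arrays, had an interaction of 0.12 (unadjusted p = 0.784, limma).

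The 8 genes of smallest p with a positive interaction did not pass either (adjusted p = 0.393 each). Wdpcp, a planar cell polarity effector needed for cilia, read 453.3, 457.2, 360.3 and 320.9 in FP-KO Day 14 lungs and 260.8, 216.7, 289.2 and 252.0 in FP-KO Day 7 lungs. The 9 WT lungs lay between 287.8 and 318.0 on both days, and the interaction was 0.58 ± 0.13. Zfyve27 (0.55 ± 0.13), Zswim3 (0.67 ± 0.17) and Adamtsl4 (0.55 ± 0.14) likewise rose in FP-KO lungs, with WT changes of -0.03, -0.18 and -0.10 that did not pass. Other Zfyve27 probe sets had interactions of -0.10, 0.36 and 0.44 (unadjusted p = 0.655, 0.131 and 0.221, limma). A dimmer Wdpcp probe set had -0.03 (unadjusted p = 0.95). Crispld2, a secreted protein, read 5013.0, 6021.4, 5152.0 and 4004.2 in FP-KO Day 14 lungs and 3664.7 to 5024.1 in FP-KO Day 7 lungs, against 1619.2, 2435.8, 2386.7, 2663.2 and 4279.5 in WT Day 14 lungs and 3517.8 to 5043.7 in WT Day 7 lungs. It fell in WT lungs (-0.81, adjusted p = 0.0152), with WT No. 5 overlapping Day 7, and its interaction was 1.11 ± 0.27. Within the first set of Day 14 arrays the interaction of Crispld2 was 1.54 and within the second 0.55. Fam216b also differed through a WT fall (-0.52, adjusted p = 0.00675), with an interaction of 0.59 ± 0.15. Without FP-KO Day 14 No. 2, Syngr1 (0.45) and Acox2 (0.67) joined the 8 positive genes of smallest p and did not pass (adjusted p = 0.922 each).

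**Figure D2:**
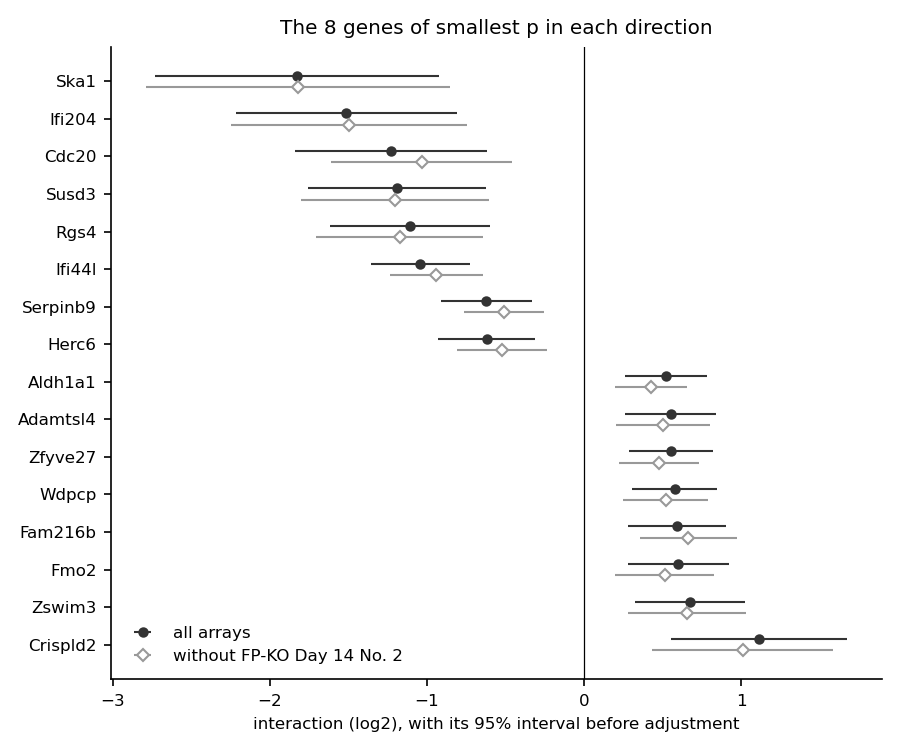
Interaction (log2) with its 95% interval before adjustment for the 8 genes of smallest p in each direction, from the fit with all arrays (filled) and without FP-KO Day 14 No. 2 (open). The gene that passed is Ifi44l, at -1.04 and -0.94.

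**Figure D3:**
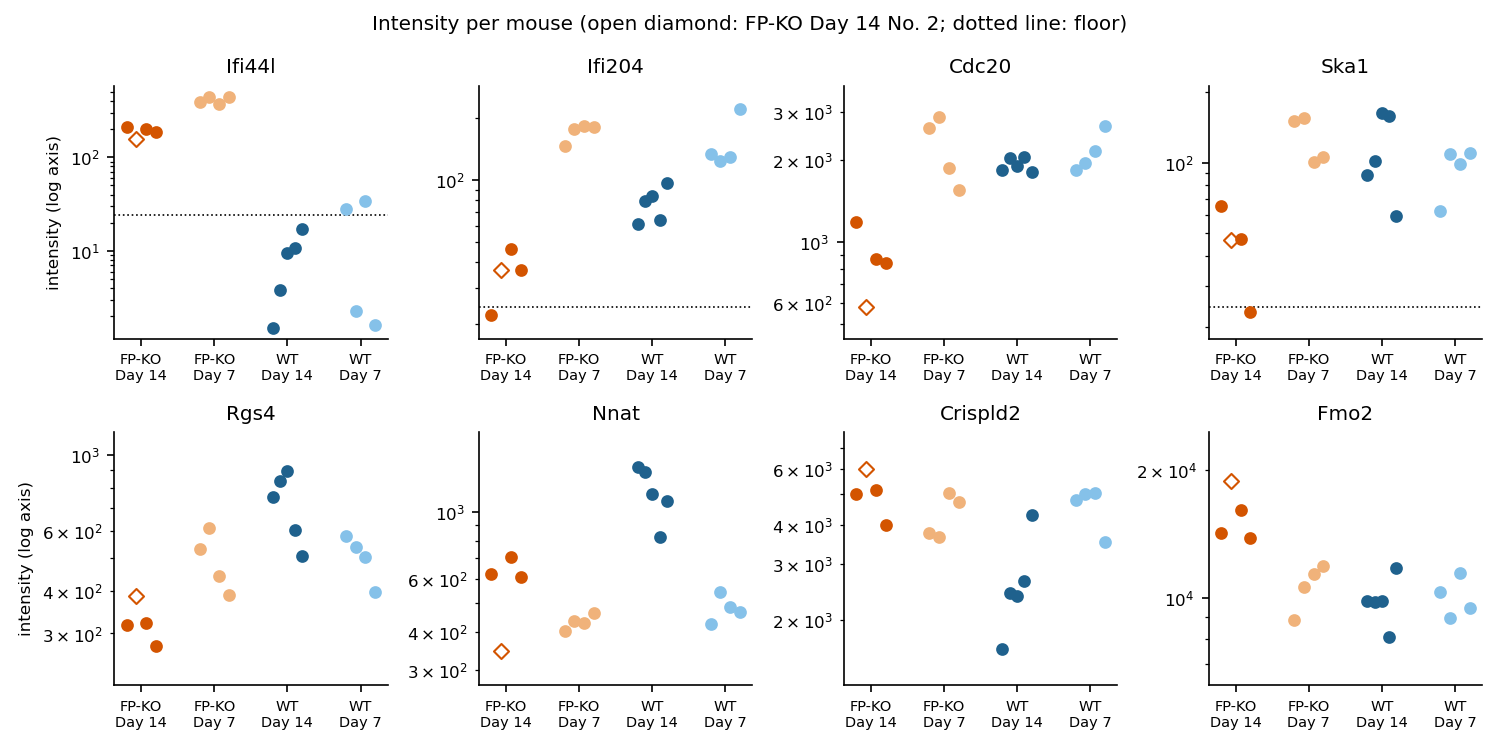
Intensity per mouse on a log axis for 8 genes, with groups in the order FP-KO Day 14, FP-KO Day 7, WT Day 14 and WT Day 7. Ifi44l lies between 158.6 and 445.1 in FP-KO lungs and at or near the floor of 24.3 (dotted) in WT lungs, and Nnat stands highest in WT Day 14 lungs.

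Cell cycle genes differed in the same direction throughout. Of 34 tested members of the list cell cycle and mitosis, all 34 had a negative interaction, with a median of -0.87 against -0.01 over all genes, and 27 reached an unadjusted p under 0.05 (4.31% of all genes did so downward). None passed on its own. Without FP-KO Day 14 No. 2 the median was -0.71, again with 34 of 34 negative, and 13 reached an unadjusted p under 0.05, against 2.78% of all genes. In FP-KO lungs 33 of the 34 fell from Day 7 to Day 14 (12% of all genes fell), and 29 without No. 2 (4.85%), whereas in WT lungs 1 fell (2.37%). On Day 14, 30 of the 34 were lower in FP-KO than in WT lungs (5.64% of all genes were), and 14 without No. 2 (1.66%).

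The mean log2 level of the list cell cycle and mitosis was 8.71, 7.80, 8.40 and 8.49 in FP-KO Day 14 lungs and 9.82, 9.90, 9.40 and 9.0 in FP-KO Day 7 lungs. It was 9.14, 9.37, 9.40, 9.33 and 9.21 in WT Day 14 lungs and 9.54, 9.71, 9.53 and 9.77 in WT Day 7 lungs. All FP-KO Day 14 lungs lay below all others, and No. 2 was lowest, among the Day 0 means of 7.62 to 8.38. The median interaction was -0.93 in the first set of Day 14 arrays and -0.79 in the second.

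Cdc20, which activates the anaphase-promoting complex, read 1186.6, 576.2, 867.4 and 837.3 in FP-KO Day 14 lungs and 2632.0, 2877.8, 1864.5 and 1552.3 in FP-KO Day 7 lungs. In WT lungs it read 1841.0, 2038.6, 1895.7, 2055.7 and 1810.0 on Day 14 and 1837.1, 1950.8, 2158.8 and 2663.3 on Day 7. Cdc20 fell in FP-KO lungs (-1.37, adjusted p = 0.000462) and had an interaction of -1.23 ± 0.29. Ube2c, the ubiquitin carrier of the same complex, had -1.20 ± 0.33, from 346.2 to 528.8 in FP-KO Day 14 lungs and 718.1 to 1743.7 in FP-KO Day 7 lungs. Ska1, a part of the complex that ties chromosomes to the spindle and no member of the list, had the most negative value of these, -1.83 ± 0.44. It read 65.4, 46.9, 47.2 and 23.3 in FP-KO Day 14 lungs, No. 4 being under the floor, and 100.5 to 154.2 in FP-KO Day 7 lungs, against 59.5 to 162.4 in WT Day 14 lungs. Other Ska1 probe sets, at the floor on 8 and 12 of the 17 arrays, had interactions of -0.13 and -0.60 (unadjusted p = 0.679 and 0.174, limma). Cdk1, a kinase that drives entry into mitosis (-1.33 ± 0.43), and Mki67, a marker of dividing cells (-0.75 ± 0.33), chosen after their values were seen, fell in FP-KO lungs and did not pass in the interaction (adjusted p = 0.488 and 0.582).

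The upstream bases of Cdc20 (chr4:118437344-118437593, minus strand) and Ube2c (chr2:164769679-164769928, plus strand) are shown because these genes had the smallest p of the cell cycle list. Capitals mark CCAAT, the box bound by NF-Y, and TTTGAA, each on either strand.

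Cdc20: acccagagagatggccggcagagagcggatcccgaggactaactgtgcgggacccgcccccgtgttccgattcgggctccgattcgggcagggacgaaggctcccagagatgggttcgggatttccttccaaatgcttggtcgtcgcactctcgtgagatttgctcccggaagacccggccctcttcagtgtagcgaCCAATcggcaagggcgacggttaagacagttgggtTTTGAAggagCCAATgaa

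Ube2c: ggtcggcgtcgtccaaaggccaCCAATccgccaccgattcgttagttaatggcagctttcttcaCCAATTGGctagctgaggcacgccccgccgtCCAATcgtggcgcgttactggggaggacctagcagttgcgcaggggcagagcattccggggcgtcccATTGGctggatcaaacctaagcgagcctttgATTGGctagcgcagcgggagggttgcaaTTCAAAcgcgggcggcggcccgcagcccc

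CCAAT was found in 26 of the 30 promoters of cell cycle list genes (86.7%) and in 33.8% of all 32851 promoters, and TTTGAA in 10 of 30 (33.3%) and in 16.0%. These letters are a description of the windows.

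Interferon-stimulated genes as a list had mostly negative values, and each downward count for the interaction and for FP-KO lungs includes Ifi44l. Of 22 tested members of the interferon-stimulated list 18 had a negative interaction, with a median of -0.45, and 8 reached an unadjusted p under 0.05 downward, against 4.31% of all genes. Ifi44l passed and 21 did not. In FP-KO lungs 11 of 22 fell and 1 rose from Day 7 to Day 14, and in WT lungs 1 fell, where 12% of all genes fell and 10.7% rose in FP-KO lungs and 2.37% fell in WT lungs. The mean log2 level of the interferon-stimulated list was 9.35, 9.0, 9.24 and 9.28 in FP-KO Day 14 lungs and 9.88, 9.94, 9.84 and 9.82 in FP-KO Day 7 lungs, against 9.40, 9.48, 9.53, 9.34 and 9.32 in WT Day 14 lungs and 9.38, 9.54, 9.49 and 10.02 in WT Day 7 lungs. FP-KO Day 7 lungs were above FP-KO Day 14 lungs without overlap, and WT No. 4 of Day 7 stood above the other WT lungs. The list mean includes Ifi44l, which was higher in FP-KO lungs by 3.96 on Day 7 and 2.91 on Day 14. The levels of FP-KO and WT lungs therefore differ in part through that gene. The median was -0.38 without FP-KO Day 14 No. 2, -0.55 in the first set and -0.30 in the second.

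The chemokine Cxcl10, which draws T cells, the RNA-binding antiviral Ifit1 and the oligoadenylate synthase Oas1a were chosen as examples after their values were seen. Cxcl10 read 250.9, 102.8, 223.6 and 241.3 in FP-KO Day 14 lungs and 913.1 to 1077.9 in FP-KO Day 7 lungs, against 410.3 to 469.9 in WT Day 14 lungs and 697.1 to 1410.8 in WT Day 7 lungs. It fell in both genotypes (log2 change -2.47 in FP-KO lungs and -1.13 in WT lungs), with an interaction of -1.34 ± 0.36. Ifit1 (-0.74 ± 0.20) and Oas1a (-0.74 ± 0.23) fell in FP-KO lungs, and their WT changes of 0.09 and -0.32 did not pass.

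The T cell and general macrophage lists lay below 0 at the median, while 10 alveolar macrophage genes had a median of 0.02, with 5 of them negative. All 10 tested T cell genes had a negative interaction, with a median of -0.49 and 4 at an unadjusted p under 0.05 (4.31% of all genes downward), and 6 of them fell in FP-KO lungs (12% of all genes). The T cell median was -0.34 without FP-KO Day 14 No. 2, and 2 then fell in FP-KO lungs (4.85%). The adhesion molecule Cd2 (-0.57 ± 0.21) and the costimulator Icos (-0.50 ± 0.21) had the smallest p of the list. The mean log2 level of the T cell list was 7.45 to 7.93 in FP-KO Day 14 lungs and 8.26 to 8.50 in FP-KO Day 7 lungs, against 7.67 to 8.0 in WT Day 14 lungs and 7.92 to 8.07 in WT Day 7 lungs. Here FP-KO Day 7 stood above the other 3 groups, and its summed intensity of 4059.5 to 4578.3 lay above the 2906.7 to 3278.1 of WT Day 14.

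General macrophage genes had a median of -0.47 with all arrays and -0.12 without FP-KO Day 14 No. 2, so that median moved with 1 lung. The Fc receptor Fcgr1 (-0.86 ± 0.31) fell in FP-KO lungs, and the efferocytosis receptor Mertk (0.44 ± 0.16) rose there. Of 14 tested genes of CC chemokines and Ccr2, a chemokine receptor, 12 had a negative interaction (median -0.47, and -0.20 without No. 2), and 10 fell in FP-KO lungs and 4 in WT lungs, against 12% and 2.37% of all genes. Without No. 2, 7 fell in FP-KO lungs and 6 in WT lungs, against 4.85% and 3.42%. The monocyte attractant Ccl2 fell in both genotypes (log2 change -2.70 in FP-KO lungs and -1.76 in WT lungs). Its values were 64.1 to 136.5 in FP-KO Day 14 lungs and 434.5 to 746.1 in FP-KO Day 7 lungs, against 134.1 to 257.9 in WT Day 14 lungs and 425.4 to 997.8 in WT Day 7 lungs. Ccl12 had an interaction of -0.94 ± 0.42 and fell in FP-KO lungs (-1.30).

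Lists of matrix genes differed among themselves. Proteoglycans and hyaluronan synthases had a median of 0.02, with 6 of 13 negative, and collagen processing genes one of -0.06 (0.01 without FP-KO Day 14 No. 2). The 7 tested fibrillar collagens were all negative, with a median of -0.40 (-0.29 without FP-KO Day 14 No. 2), and 1 reached an unadjusted p under 0.05. In FP-KO lungs 2 fell (12% of all genes did), 0 without No. 2 (4.85%), and in WT lungs 0 passed. On Day 14, 6 of 7 were lower in FP-KO than in WT lungs (5.64% of all genes), and 4 without No. 2 (1.66%). Col5a3, a collagen V chain, had the smallest p (-0.87 ± 0.32). Col1a1, the main chain of collagen I, chosen after its values were seen, read 5664.3, 3141.0, 2848.9 and 2827.7 in FP-KO Day 14 lungs and 2325.0 to 3685.2 in FP-KO Day 7 lungs. In WT lungs Col1a1 read 9900.9, 11667.9 and 9544.1 in the first set of Day 14 and 5814.6 and 4942.8 in the second, against 4654.4 to 5518.2 on Day 7. The WT Day 14 values parted by set, and the interaction of -0.40 ± 0.34 did not pass (adjusted p = 0.815).

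Among 16 matricellular genes 12 had a negative interaction (median -0.31, and -0.15 without FP-KO Day 14 No. 2), with Cthrc1, a secreted protein of activated fibroblasts, at -1.09 ± 0.29. Cthrc1 read 220.0 to 439.6 in FP-KO Day 14 lungs and 441.4 to 636.6 in FP-KO Day 7 lungs, against 588.4 to 1080.4 in WT Day 14 lungs and 490.3 to 649.0 in WT Day 7 lungs. Ccn2, a TGF-beta target, had a positive value (0.50 ± 0.19). Of 15 matrix metalloproteinase and inhibitor genes 13 were negative, with a median of -0.61 that was -0.23 without FP-KO Day 14 No. 2. The inhibitor Timp1 fell in both genotypes (log2 change -2.38 in FP-KO lungs and -1.18 in WT lungs), and its interaction was -1.20 ± 0.38. The membrane protease Mmp14 (-0.77 ± 0.24) fell in FP-KO lungs (-0.61, adjusted p = 0.0153).

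**Figure D4:**
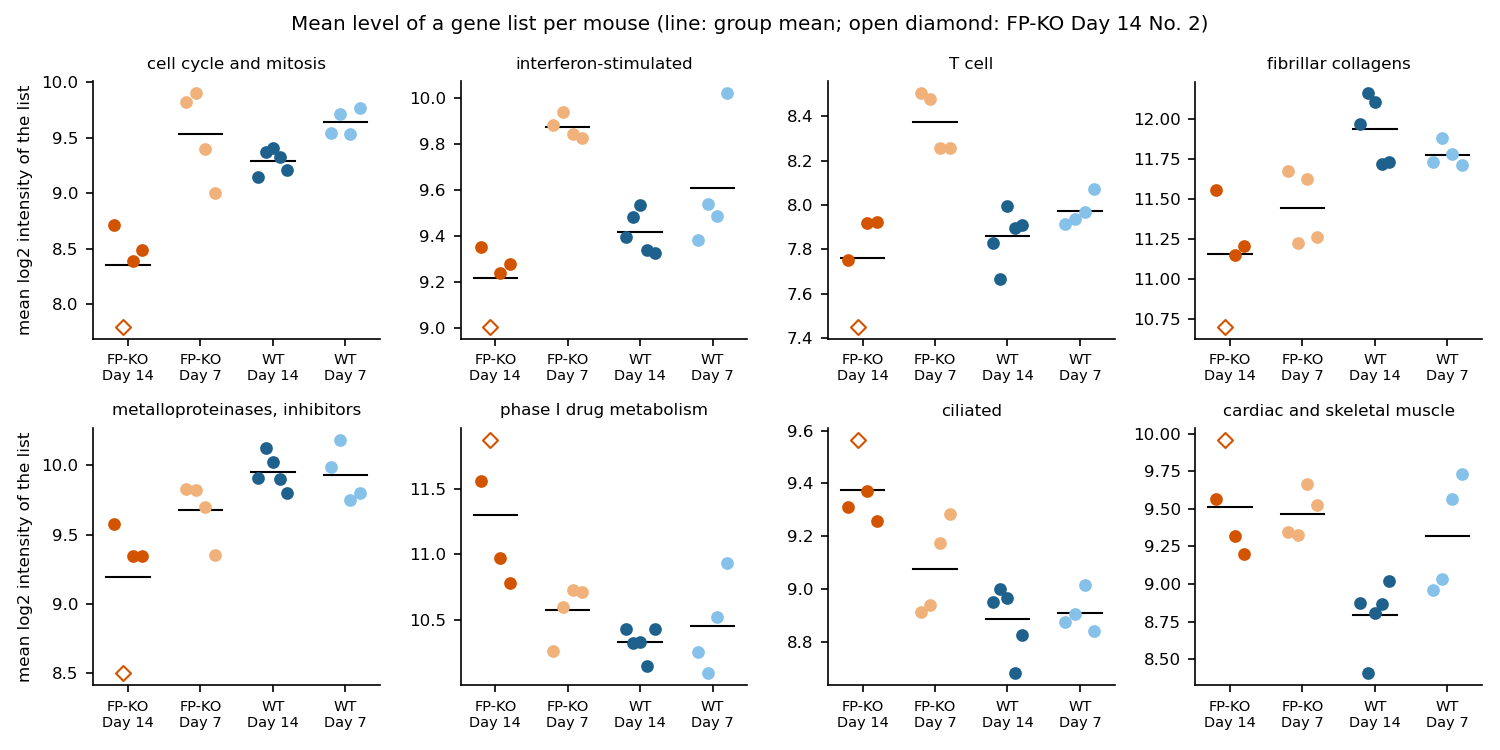
Mean log2 intensity per mouse of 8 gene lists, with groups in the order FP-KO Day 14, FP-KO Day 7, WT Day 14 and WT Day 7, the group mean as a line and FP-KO Day 14 No. 2 as an open diamond. For the cell cycle list the 4 FP-KO Day 14 lungs lie between 7.80 and 8.71, below all other lungs shown, and in several lists No. 2 is the outermost FP-KO lung.

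Genes of drug metabolism had positive interactions. All 14 tested phase I enzymes were above 0, with a median of 0.61 against -0.01 over all genes, and 9 reached an unadjusted p under 0.05 upward (3.41% of all genes did). Without FP-KO Day 14 No. 2 the median was 0.50 and 5 reached it, against 2.16%. From Day 7 to Day 14, 10 rose in FP-KO lungs (10.7% of all genes rose) and 2 without No. 2 (4%), and 0 rose in WT lungs (3.56%). The flavin monooxygenase Fmo2 read 14229.7, 18804.2, 16076.9 and 13812.1 in FP-KO Day 14 lungs and 8859.7 to 11858.8 in FP-KO Day 7 lungs, against 8110.0 to 11748.8 in WT Day 14 lungs and 8962.0 to 11428.0 in WT Day 7 lungs. All FP-KO Day 14 lungs stood above all others, with an interaction of 0.60 ± 0.16. The carboxylesterase Ces1d was at 0.62 ± 0.17, the retinal dehydrogenase Aldh1a1 at 0.52 ± 0.13 and the glutathione transferase Gsta3 at 0.86 ± 0.24.

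Cyp1a1, a target of the aryl hydrocarbon receptor, had the highest value of the list (3.09 ± 1.25) and was chosen after it was seen. It read 2151.6 and 1151.6 in FP-KO Day 14 No. 1 and 2 and 72.0 and 62.5 in No. 3 and 4, against 39.1 to 93.4 in FP-KO Day 7 lungs. In WT lungs it read 6.2 to 69.9 on Day 14 and 47.6, 36.4, 73.7 and 436.9 on Day 7. Its high values are those of the first set in FP-KO lungs and of 1 WT Day 7 lung, and it did not pass with all arrays (adjusted p = 0.567).

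Markers of ciliated cells, club and goblet cells and resident fibroblasts had positive medians. Of 14 ciliated cell genes all 14 had a positive interaction, with a median of 0.39 and 4 at an unadjusted p under 0.05 (3.41% of all genes upward), and without FP-KO Day 14 No. 2 a median of 0.28 and 2 (2.16%). The dynein light chain Dynlrb2 (0.41 ± 0.13) and the tektin Tekt1 (0.46 ± 0.16) led them. Tekt1 read 391.9 to 427.5 in FP-KO Day 14 lungs and 292.0 to 362.1 in FP-KO Day 7 lungs, against 229.3 to 311.3 in WT Day 14 lungs and 244.4 to 355.2 in WT Day 7 lungs. The FP-KO Day 14 lungs lay above all others, yet neither change passed within a genotype. All 13 club and goblet genes were positive as well (median 0.28, and 0.18 with 2 negative without No. 2), with the secretoglobin Scgb3a2 at 0.33 ± 0.12. Of 12 resident fibroblast genes 10 were positive (median 0.35), and 6 rose in FP-KO lungs and 0 in WT lungs, against 10.7% and 3.56% of all genes. Without No. 2, 3 rose in FP-KO lungs (4%). Among the 6 were the integrin Itga8 (0.38 ± 0.14) and Limch1 (0.44 ± 0.14). Alveolar type 1 and type 2 genes had medians of 0.02 and -0.03.

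Cardiac and skeletal muscle genes, which mark heart or vein muscle in a lung sample, had a median of 0.62, and 16 of 17 were positive, 9 at an unadjusted p under 0.05 (3.41% of all genes upward). The median was 0.46 and the count 6 (2.16%) without FP-KO Day 14 No. 2. In WT lungs 4 fell, against 2.37% of all genes, and in FP-KO lungs 0 passed. Their summed intensity was 18769.6 to 31571.0 in FP-KO Day 14 lungs and 18532.6 to 25087.6 in FP-KO Day 7 lungs, against 12423.3 to 15887.8 in WT Day 14 lungs and 15665.1 to 23695.4 in WT Day 7 lungs. Troponin T, Tnnt2, was at 0.81 ± 0.22, the calcium channel Ryr2 at 0.67 ± 0.22 and myoglobin, Mb, chosen after its value was seen, at 1.24 ± 0.44. All 8 adipocyte genes were positive (median 0.58, and 0.35 without No. 2), with 0 at an unadjusted p under 0.05. How much tissue other than lung entered each sample was not measured, and its part in other results was not tested.

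**Figure D5:**
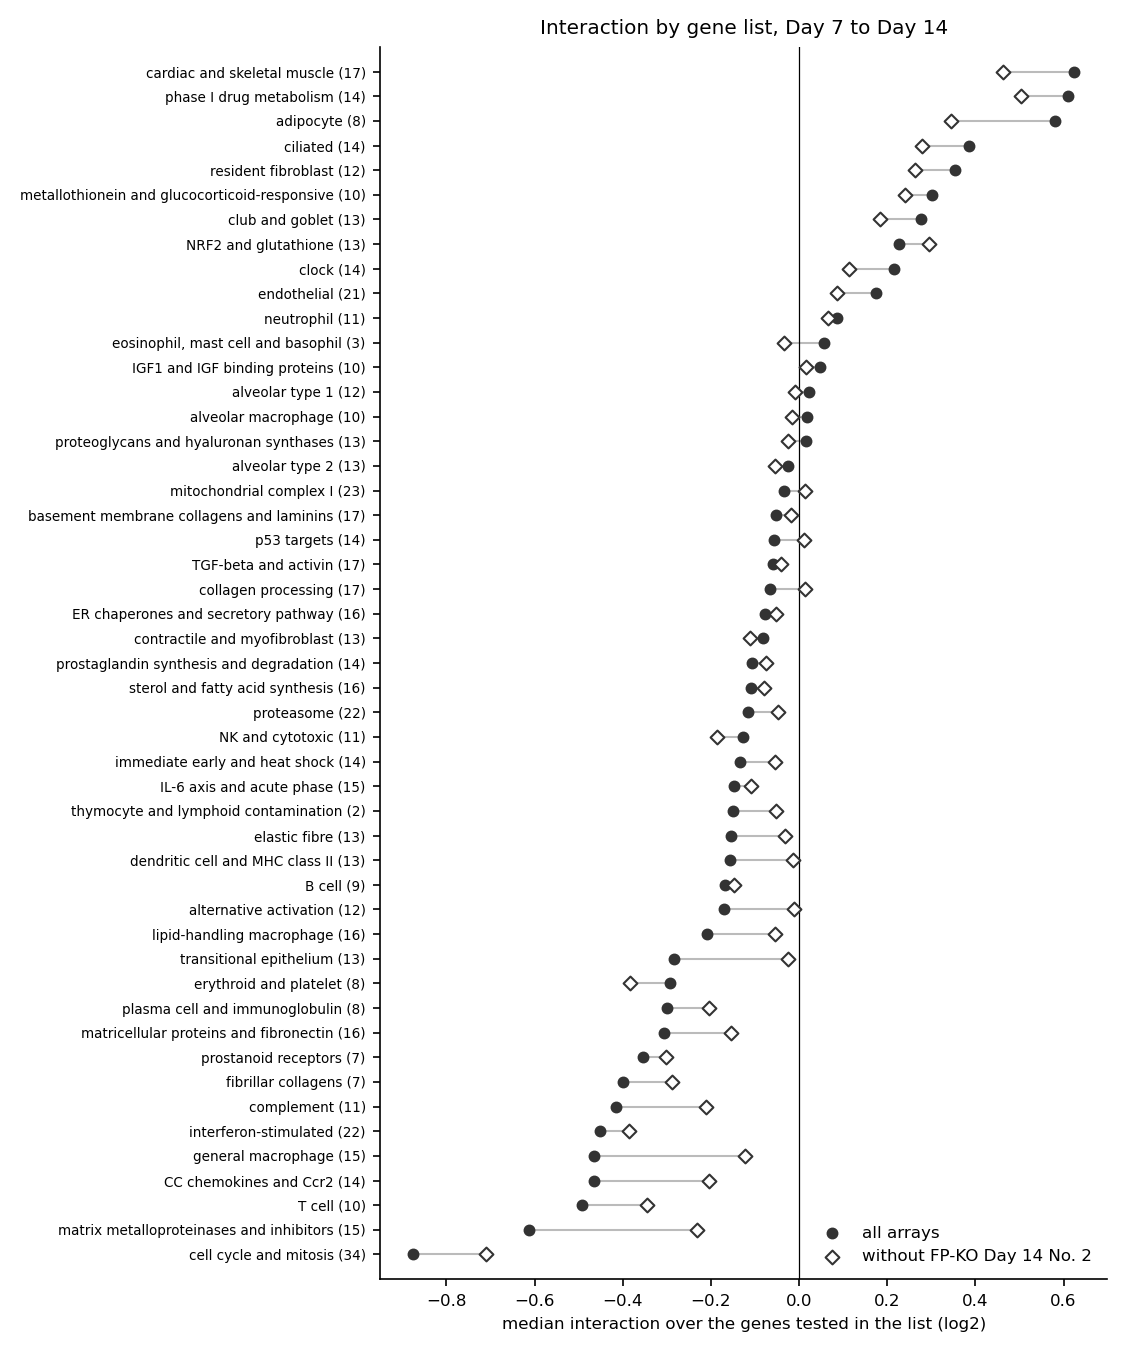
Median interaction (log2) over the tested genes of each of the 49 lists, with all arrays (filled) and without FP-KO Day 14 No. 2 (open), and the number of genes in brackets. The cell cycle list is lowest at -0.87 and -0.71, and the muscle and drug metabolism lists are highest with all arrays at 0.62 and 0.61.

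Receptors for other prostanoids were read beside FP. Of 7 tested prostanoid receptor genes, Ptgfr included, 6 had a negative interaction, with a median of -0.35. Without FP-KO Day 14 No. 2 the median was -0.30, with 5 negative. In FP-KO lungs 3 of the 7 fell and 1 rose, against 12% and 10.7% of all genes. Without No. 2, 1 fell and 0 rose, against 4.85% and 4%. Ptger3, a prostaglandin E2 receptor, read 98.1, 95.4, 190.0 and 154.8 in FP-KO Day 14 lungs and 180.6 to 256.6 in FP-KO Day 7 lungs, against 225.3 to 334.7 in WT Day 14 lungs and 218.9 to 341.2 in WT Day 7 lungs. It fell in FP-KO lungs (-0.80, adjusted p = 0.0136), with FP-KO No. 3 overlapping Day 7, and had an interaction of -0.85 ± 0.30. Ptger4, another receptor for prostaglandin E2, fell in FP-KO lungs by 0.93 and had -0.58 ± 0.21. Genes of prostaglandin synthesis and degradation had a median of -0.11 over 14 genes.

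The sets of Day 14 arrays gave different counts. With the first set alone at Day 14, 25 genes passed the interaction, 15 up and 10 down, and with the second set alone 0 passed. In the first set without FP-KO Day 14 No. 2, which leaves 1 FP-KO and 3 WT lungs at Day 14, 2 passed, Wdfy1 and Gm19990, both chosen after values were seen, and the lone FP-KO lung is taken to vary like the other groups. Wdfy1, an endosomal protein, read 268.9, 352.1, 421.6 and 402.6 in FP-KO Day 14 lungs and 203.2 to 379.6 in FP-KO Day 7 lungs. In WT Day 14 lungs it read 1036.2, 924.9 and 876.7 in the first set and 348.2 and 321.9 in the second, against 259.8 to 320.9 in WT Day 7 lungs. Its interaction was -1.73 in the first set, 0.19 in the second and -0.91 with all arrays (adjusted p = 0.573), so the high values are those of the 3 WT lungs of the first set. List medians also differed between the first and the second set. They were -0.78 and -0.17 for general macrophage and for metalloproteinase genes, -0.49 and -0.17 for fibrillar collagens and 0.44 and 0.18 for resident fibroblasts. Muscle genes had 0.84 and 0.30, and phase I enzymes 0.86 and 0.40. Club and goblet genes (0.09 and 0.33) and ciliated cell genes (0.31 and 0.43) were higher in the second.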

How the data were processed

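The authors deposited linear intensity values of 45101 probe sets for 25 arrays, which run from 0 to 51673.8. With the lowest and highest 2% set aside, the deposited intensities average 500.0 on each array, so arrays had been scaled. No label or header names the software. Per the labels' protocols, total RNA was extracted with Sepasol and 6 ug was labelled with biotin. Each array is titled as 1 mouse. The number of arrays limits the precision.

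Values under 24.3, the 20th percentile, were raised to it, then quantile-normalized and taken to log2. The 64 control probe sets, 932 with several symbols and 9160 with none were left out, and of 34945 with 1 symbol 34741 matched the GRCm38.p6 gene table. The probe set of highest mean stood for each of 18193 genes, and the 12062 genes that exceeded the array median on 4 or more arrays were tested. The tests used R 4.3.3 and limma 3.58.1 (a mean for each of 6 groups, contrasts between them, moderated by eBayes), with Benjamini-Hochberg adjustment over all genes tested and a call at 0.05, and all 25 arrays shared 1 estimate of spread per gene. A fold change of a gene at the floor is understated. Plots were made in matplotlib 3.10.9 under python 3.11.15.

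The contrast, the 49 gene lists and the sets of Day 14 arrays were chosen with earlier results of these data known. Named genes are Ptgfr, the 8 of smallest p in each direction with all arrays and without FP-KO Day 14 No. 2 (as under 5 passed each way), and from each list up to 3 members that passed or else up to 2 of smallest p, of which those described are a part. Genes chosen after their values were seen are said to be so. Lists were described by counts and medians, with no test of a list. Alternatives were other normalizations, floors, filters, probe sets, variance models, array weights, the 17 arrays alone, a replicate block, a term for the Day 14 set, each set alone and each mouse left out. Probe sets with no or several symbols were tested apart, an addition made after seeing the data.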

Additional observations from a re-analysis of the deposited data

Results flagged for a closer look

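Samples apart from their group were looked for in 79 groups of single genes and 196 groups of list means, by the gap of the outermost lung to its neighbour as a share of the group's range. Chance gives about 1 in 20 such gaps. The 10 found are no more than that share of the groups, so they describe positions and do not establish outliers. FP-KO Day 14 No. 2 was lowest in Herc6 (0.944) and in the list means of general macrophage (0.915), lipid-handling macrophage (0.885) and transitional epithelium genes (0.861). FP-KO Day 7 No. 3 was lowest in Fam216b (0.869). In collagen processing FP-KO Day 7 No. 4 was lowest (0.960) and WT Day 7 No. 2 highest (0.832). FP-KO Day 14 No. 1 was highest in proteoglycans and hyaluronan synthases (0.831), FP-KO Day 14 No. 4 lowest in metallothionein and glucocorticoid-responsive genes (0.858), and FP-KO Day 7 No. 2 highest in thymocyte and lymphoid genes (0.932).

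The interaction of Ifi44l (-1.04) passed. With 5 of 5 WT Day 14 values and 2 of 4 WT Day 7 values at the floor, the WT change was held near 0, so the value rests on the fall in FP-KO lungs and does not show how the change in WT lungs compares.

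Probe sets that name several genes lie outside the gene table. Of 583 such probe sets 2 passed the interaction, adjusted over this class, and 42 reached an unadjusted p under 0.05. Of 2843 with no symbol 0 passed in limma and 122 reached an unadjusted p under 0.05. One of the 2 had an interaction of -2.90 (adjusted p = 0.00334). It read 17.9, 26, 30.9 and 35.2 in FP-KO Day 14 lungs and 481.9, 468.5, 119.9 and 322.4 in FP-KO Day 7 lungs, against 109.2, 231.6, 260.6, 317.9 and 142.8 in WT Day 14 lungs and 275.2, 416.1, 283.5 and 227.8 in WT Day 7 lungs. The other had 1.21 (adjusted p = 0.041). It read 382.8 to 599.8 in FP-KO Day 14 lungs and 319.3 to 432.0 in FP-KO Day 7 lungs, against 171.0 to 246.1 in WT Day 14 lungs and 308.9 to 594.9 in WT Day 7 lungs. No gene is named for either.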

How the results depend on the processing

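The number of genes that passed the interaction, 1 with all arrays, was 0 with a common median in place of quantile normalization, with a floor at the 10th percentile, with a trend and robust spread, with the 17 arrays alone and with the second set of Day 14 arrays alone. It was 2 with no filter on dim genes and 25 with the first set alone. The result without FP-KO Day 14 No. 2, also 1, was 0 with the values as deposited, the common median, the 10th percentile floor, the trend and the 17 arrays, and 2 with the first set. The second set does not hold that array, so its count of 0 stands for both results. Leaving out each mouse gave 1 to 2 genes with all arrays and 0 to 2 without FP-KO Day 14 No. 2. It was 2 with all arrays but WT Day 14 No. 5. Without FP-KO Day 14 No. 2 it was 0 on also leaving out FP-KO Day 14 No. 3 or No. 4, FP-KO Day 7 No. 4, or WT Day 7 No. 2 or No. 4, and 2 on leaving out WT Day 14 No. 4. The FP-KO change, 2742 genes, was 1726 with a common median, 1665 with array weights, 4308 with the first set and 283 with the second. It was 1067 to 3176 when mice were left out, the lowest without FP-KO Day 14 No. 2, with 1518 and 1428 without FP-KO Day 7 No. 1 and No. 2. The WT change, 716 genes, was 448, 3545, 2961 and 15 in the same order, 365 with the 17 arrays, 1386 with a term for the Day 14 set and 193 to 1445 when mice were left out. Without WT Day 14 No. 1 to No. 5 it was 198, 259, 278, 1172 and 1445, and without WT Day 7 No. 1, No. 2 and No. 4 it was 193, 252 and 406. FP-KO against WT on Day 14, 1270 genes, was 767 with a common median, 2858 with array weights, 2 with the second set and 392 to 1546 when mice were left out, with 392 without FP-KO Day 14 No. 2 and 735 and 804 without WT Day 14 No. 2 and No. 3. On Day 7 it was 2 genes, 1 with the stricter filter, 5 with the second set and 2 to 3 when mice were left out. The causes were not tested, and each set alone also holds fewer arrays. With the mouse number as a replicate block, 2 genes passed the interaction, 0 without FP-KO Day 14 No. 2, and 1551 the WT change. In the labels the samples share only a number. Deviations of equally numbered FP-KO and WT mice correlated at 0.14 to 0.22 for Day 7 and -0.31 to 0.44 for Day 14. Of 8 numbers 4 matched their own best, No. 1 to 3 of Day 7 and No. 4 of Day 14. Whether the number stands for a shared handling was not tested. Ifi44l passed under 9 of 14 processing alternatives, with a log2 interaction of -1.22 to -0.60 and an adjusted p from 3.87e-05 to 0.817, and under 17 of 17 that left out a mouse (adjusted p from 0.00239 to 0.032). Of 55 genes described, 1 changed sign under an alternative, Wdfy1, at 0.19 with the second set. The signal over background limits Ifi44l in WT lungs, where most values were at the floor.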

Other observations

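Some lists had an interaction near 0 at the median although their genes passed within a genotype. Over all genes, 10.7% rose and 12% fell in FP-KO lungs, and 3.56% rose and 2.37% fell in WT lungs. Of 12 alveolar type 1 genes 8 rose in FP-KO lungs and 6 in WT lungs, and without FP-KO Day 14 No. 2, 5 rose in FP-KO lungs and 6 in WT lungs. Of 13 alveolar type 2 genes 8 rose in FP-KO lungs and 5 in WT lungs, and without that array the order turned, with 4 in FP-KO lungs and 7 in WT lungs. In both lists 0 genes reached an unadjusted p under 0.05 in the interaction (limma; none passed). Of 17 basement membrane collagens and laminins 8 rose in FP-KO lungs and 7 in WT lungs (7 and 7 without that array), and the median interaction was -0.05. Of 22 proteasome genes 13 fell in FP-KO lungs and 1 in WT lungs, but 5 and 3 without that array, and their median interaction was -0.12 with all arrays and -0.05 without it. Over all genes without that array, 4% rose and 4.85% fell in FP-KO lungs, and 4.6% rose and 3.42% fell in WT lungs.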
